A study of Mus musculus with 17 samples.

Results

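The granin family comprises acidic proteins stored with peptide hormones in the dense-core granules of endocrine cells, and 6 of its genes (Chga, Chgb, Scg2, Scg3, Scg5 and Vgf) were followed in single mouse pancreatic cells after streptozotocin (STZ), a toxin that enters beta cells through the glucose transporter GLUT2. The 6 genes were taken by name and all 6 were found among the 40824 genes of the UMI table; UMIs are molecular tags that count RNA molecules rather than reads. Their levels were compared across cells typed by the largest of 4 hormone genes (Ins2 for beta, Gcg for alpha, Sst for delta, Ppy for PP), which had to reach 3000 UMIs per 100000 UMIs left after 8 hormone genes are set aside and to be 3 times each other hormone. Of 2999 cells, 929 were typed beta, 517 alpha, 143 delta and 173 PP; 333 had no hormone 3 times above the rest, and 904 had none at 3000. Granins took no part in the typing. The 25 beta-typed cells whose Ins2 lay between 3000 and 4000 had median levels of 615.3 for Chga, 374.3 for Chgb and 298.4 for Scg2, and the 15 Ins2-led cells between 2000 and 3000, just outside, had 123.5, 109.1 and 38.4.

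All mice carried Ngn3-Cre and Rosa-RFP, in which endocrine cells are marked through a Cre driven by the endocrine progenitor gene Ngn3, and RFP-positive pancreatic cells were sorted and picked singly. The 17 libraries formed 12 groups. Adult male mice of 2 months received citrate buffer (Control, 3 libraries) or 1 intraperitoneal dose of 200 mg/kg STZ after a fast. STZ mice with insulin implants were sampled on days 6, 12, 30 and 42 and in months 2, 5 and 9 (STZ_D6, STZ_D12, STZ_D30, STZ_D42, STZ_M2, STZ_M5 and STZ_M9), with 2 libraries on day 12 and 1 at each other time; in month 9 the implants were discontinuous over the last 2 months. STZ mice without implants were sampled in month 2 (STZ_M2_NoIns, 2 libraries), and untreated mice on postnatal days 3, 12 and 21 (P3, P12 and P21, with 1, 2 and 1 libraries). The series text describes the STZ course as running from day 1 and writes D6 beside it; the group is taken here by its name. The labels do not say whether libraries came from separate animals, so p-values measure the spread between these libraries, which may be technical.

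Libraries held between 22 and 295 cells and between 1420536 and 26298456 UMIs, and the median cell held 61193 UMIs. Summed marker levels followed the typing: the beta markers had a median of 19120 UMIs per 100000 in beta-typed cells and 471.5 in alpha-typed cells, and the alpha markers 3710 in alpha-typed and 359.4 in beta-typed cells. Beta markers include Ins1 and Iapp; of the others, Ucn3, Slc2a2, G6pc2, Pdx1 and Nkx6-1 had a UMI in 86.9% to 97.8% of beta-typed cells, and Mafa was at 0 in every typed cell. PP markers are led by Pyy and were also high in delta-typed cells, at 5157 against 12196 in PP-typed cells. The 904 cells without a hormone had a median summed acinar marker level of 21335 and are not described as endocrine; their median granin levels ran from 0 for Vgf to 7.93 UMIs per 100000 for Chga. No 2 cells of the table had identical counts. Cells of 1 type were summed per library, and sums of under 5 cells were left out. A level below is the UMIs of a gene per 100000 non-hormone UMIs of the sum; since UMIs count molecules, levels were set side by side between genes without a length correction.

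Granins aggregate in the acidic, calcium-rich lumen of the trans-Golgi network and help to form the secretory granule, and several are cut into peptides that are released with the hormone. Chromogranin A (Chga) and chromogranin B (Chgb) are the classical matrix proteins of the granule. Secretogranin 2 (Scg2) is the precursor of secretoneurin, secretogranin 3 (Scg3) binds cholesterol-rich granule membrane and chromogranin A, Scg5 (7B2) is the chaperone of prohormone convertase 2, and Vgf is a precursor of neuroendocrine peptides. In the islet, granins travel with insulin, glucagon, somatostatin and pancreatic polypeptide.

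The promoters of the members are shown because 3 of them carry a form of the cyclic AMP response element (CRE) close to the start site. RefSeq promoter windows (build GRCm38.p6, from 250 bases before to 50 after the start site) were matched for 5 of 6 members; Vgf was not matched. The windows of Chgb (plus strand, chr2:132781392-132781691) and Scg2 (minus strand, chr1:79439977-79440276) hold the full palindrome TGACGTCA, which begins 72 and 68 bases before the start site. The window of Chga (plus strand, chr12:102554691-102554990) holds the variant TGACGTAA, 44 bases before it. Each is given 5′ to 3′ on the gene's strand, with the motif in capitals.
Chgb: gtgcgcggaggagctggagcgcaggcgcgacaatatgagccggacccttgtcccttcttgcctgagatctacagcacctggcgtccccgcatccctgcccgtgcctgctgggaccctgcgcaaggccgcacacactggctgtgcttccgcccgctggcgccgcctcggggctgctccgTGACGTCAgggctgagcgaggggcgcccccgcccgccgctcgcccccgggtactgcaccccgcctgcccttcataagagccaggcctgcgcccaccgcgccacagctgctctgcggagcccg
Scg2: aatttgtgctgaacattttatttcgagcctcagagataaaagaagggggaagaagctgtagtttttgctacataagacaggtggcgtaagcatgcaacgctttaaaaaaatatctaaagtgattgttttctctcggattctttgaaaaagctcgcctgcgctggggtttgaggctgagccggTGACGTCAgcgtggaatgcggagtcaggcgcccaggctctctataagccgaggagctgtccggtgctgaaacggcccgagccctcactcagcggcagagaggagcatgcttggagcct
Chga: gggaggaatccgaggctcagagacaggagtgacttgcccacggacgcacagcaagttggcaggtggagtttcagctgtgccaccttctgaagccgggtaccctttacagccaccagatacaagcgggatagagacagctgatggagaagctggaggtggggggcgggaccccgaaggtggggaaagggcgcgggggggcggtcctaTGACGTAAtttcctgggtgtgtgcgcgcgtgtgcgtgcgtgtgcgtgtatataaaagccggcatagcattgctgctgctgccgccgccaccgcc
Both strands of 32851 promoter windows were searched: 1.79% held TGACGTCA and 0.499% TGACGTAA. The shorter core TGACG, which lies inside both longer motifs, was found in 20.8% of windows; it was also in the windows of Scg3 (chr9:75684007-75684306, minus strand, 30 bases before the start site) and Scg5 (chr2:113829042-113829341, minus strand, first match 175 bases before it), without either longer motif. These matches are a description of the letters, and no binding was measured here. By the GENCODE M21 annotation of GRCm38, the genes lie on chromosome 12 (Chga, 102554969 to 102565028), chromosome 2 (Chgb, 132781278 to 132795079, and Scg5, 113776362 to 113829121), chromosome 1 (Scg2, 79434669 to 79440120), chromosome 9 (Scg3, 75643189 to 75684056) and chromosome 5 (Vgf, 137026392 to 137033351). The distances above run from the start sites of the RefSeq windows. By these GENCODE coordinates Chgb begins before its window and Scg2 within it, so both TGACGTCA matches lie inside the annotated genes. The coding sequence of Scg2 and of Vgf lies in 1 exon, and that of the others in 5 (Chgb, Scg5), 8 (Chga) or 12 (Scg3) exons.

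In the adult islet, beta-typed cells held the most granin RNA, and the mix of members differed between types. The 6 genes together had a median level of 4068 UMIs per 100000 over 12 adult beta sums (lowest 2973, highest 4831). The medians were 1652 in 12 alpha sums, 1927 in 9 delta sums and 1782 in 12 PP sums. Chga made up a median of 43.8% of the family's UMIs in beta sums and 52.5% in alpha sums. Scg5 made up 4.61% in beta sums against 15.1% in alpha sums. Types were compared in 1 edgeR quasi-likelihood fit over 45 adult sums with the library as a block, and p-values were adjusted over 8868 genes by the Benjamini-Hochberg method, as in every comparison below, with calls at an adjusted p under 0.05. Between 13% (PP against alpha) and 26.1% (alpha against beta) of all genes were called in these contrasts, so a call between types is common. Of the 6 granins, 4 were called between alpha and beta, 5 between delta and beta, 6 between PP and beta, 5 between delta and alpha, 4 between PP and alpha and 4 between PP and delta. The share was 19.6% for delta against beta, 16.1% for PP against beta, 15.2% for delta against alpha and 13.4% for PP against delta.

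**Figure D1:**
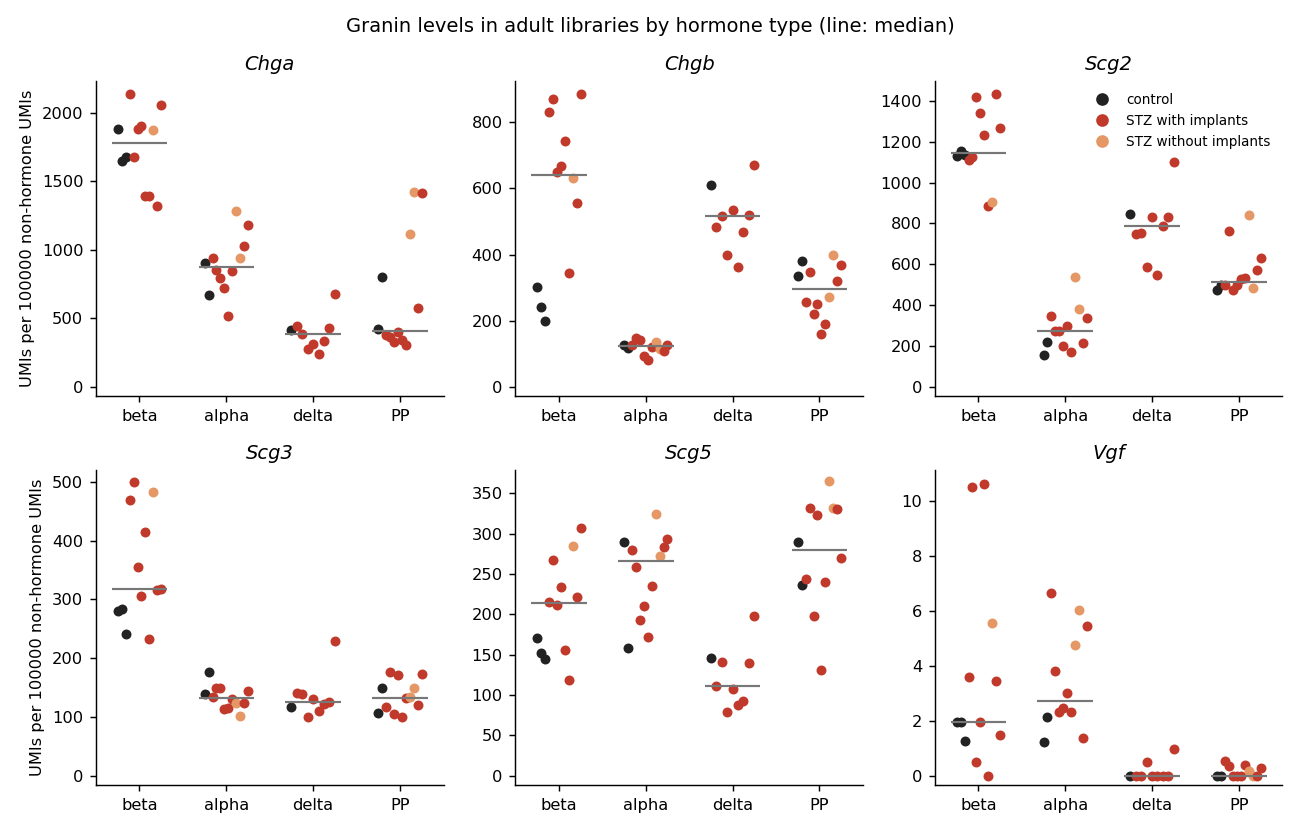
Level of each granin (vertical axis, UMIs per 100000 non-hormone UMIs of the sum) in beta-, alpha-, delta- and PP-typed cells of adult libraries with at least 5 such cells; each point is 1 library and the line is the median. Chga is highest in beta sums (median 1777), Chgb of controls lies at the bottom of the beta points, and Vgf is near 0 in delta and PP sums.

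Chga was highest in beta cells and lower in every other type. Its level had a median of 1777 in beta sums (1318 to 2136), 877.6 in alpha sums (517.2 to 1285), 383.9 in delta sums (238.4 to 679.0) and 409.5 in PP sums (304.2 to 1424). The beta range did not overlap the alpha or the delta range. Against beta, Chga was lower by a log2 fold change of -0.997 ± 0.145 in alpha (SE, edgeR, adjusted p = 2.83e-07), -2.17 ± 0.17 in delta and -1.60 ± 0.15 in PP sums. It was also lower in delta than in alpha (log2 -1.18 ± 0.16) and higher in PP than in delta (0.58 ± 0.16, adjusted p = 0.00922). That last call was lost with typing at 10000 (0.20, adjusted p = 0.630), at least 20 cells a sum (0.11, 0.911), the acinar limit (0.32, 0.242) and in controls alone (0.60, 0.355). The high PP values rest on few cells. In the 2 libraries without implants Chga was 1117 and 1424, from 9 and 5 PP-typed cells, against 420.5 and 801.8 in controls. With implants the median was 375.0, and this difference was not tested. The highest library with implants was STZ_M9: 67.3% of the Chga UMIs in its PP-typed cells came from 1 of 5 cells, and without that cell the level fell from 1415 to 853.3.

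Chgb had another order, which was not the same in control and in STZ libraries. Its level was lowest in alpha sums, with a median of 123.5 (83.1 to 149.3), against 515.0 in delta (363.0 to 671.2), 296.0 in PP (161.4 to 400.0) and 639.9 in beta sums (199.1 to 884.1). Alpha sums were lower than beta (log2 -2.23 ± 0.15, adjusted p = 3.51e-16), delta (delta against alpha 1.99 ± 0.16) and PP sums (PP against alpha 1.24 ± 0.15). In control libraries alone alpha against beta was -0.998 ± 0.199 (adjusted p = 0.000823), and in STZ libraries alone -2.44 ± 0.13. Delta and beta sums were not called apart over all adult libraries (-0.25 ± 0.16, adjusted p = 0.313), and the direction differed between control and STZ libraries. In controls alone, Chgb was higher in delta than in beta (1.09 ± 0.25, edgeR adjusted p = 0.0122), with 1 delta sum of 7 cells at 610.3. In STZ libraries alone it was lower in delta than in beta (-0.44 ± 0.13, adjusted p = 0.0131). PP against beta was 0.29 ± 0.20 in controls (adjusted p = 0.561) and -1.21 ± 0.12 in STZ libraries (adjusted p = 8.67e-10). With a single control delta sum, the change of the delta against beta difference itself was not tested.

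Scg2, the secretoneurin precursor, was also highest in beta and lowest in alpha cells. Its level had a median of 1144 in beta (887.2 to 1432), 786.5 in delta (546.0 to 1103), 513.6 in PP (472.1 to 840.9) and 273.1 in alpha sums (157.7 to 538.7). The beta and alpha ranges did not overlap, while the beta and delta ranges did. Against beta, Scg2 was lower by log2 -2.11 ± 0.13 in alpha (edgeR adjusted p = 1.03e-17), -0.65 ± 0.14 in delta (0.000359) and -1.07 ± 0.13 in PP sums. With at least 20 cells a sum, neither the delta call (-0.54, edgeR adjusted p = 0.465) nor the PP call (-1.07, 0.0791) held. In controls alone, with 1 delta sum, delta against beta was -0.66. PP and delta were closest (PP against delta -0.42 ± 0.13, adjusted p = 0.0259), a call lost under stricter or looser typing, with at least 20 cells a sum, without acinar-high cells and in control or STZ libraries alone (adjusted p from 0.0856 to 0.448).

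Scg3 was highest in beta cells, with closely spaced medians in the other types. Its median was 316.8 in beta (231.8 to 500.4), 131.6 in alpha, 125.0 in delta and 132.5 in PP sums. Scg3 was lower than in beta by log2 -1.33 ± 0.12 in alpha, -1.44 ± 0.13 in delta and -1.32 ± 0.12 in PP sums, with edgeR adjusted p-values of at most 7.21e-12. In control libraries alone alpha against beta was -0.71 ± 0.21 (adjusted p = 0.0303). Scg5 did not follow this order. Its median was 279.9 in PP, 266.1 in alpha, 213.7 in beta and 111.3 in delta sums. Scg5 was higher in PP than in beta (0.41 ± 0.11, edgeR adjusted p = 0.00617) and lower in delta than in beta (-0.76 ± 0.12), alpha (-1.03 ± 0.12) and PP (PP against delta 1.16 ± 0.12). In control libraries alone, with 1 delta sum, these were -0.043 (adjusted p = 0.956), -0.61 (0.342) and 0.62 (0.343). The PP against beta call of Scg5 was lost with at least 20 cells a sum (0.42, edgeR adjusted p = 0.491) and in controls alone (0.58, 0.134). Delta against beta was also lost with at least 20 cells (-0.92, 0.106). Alpha against beta was 0.27 ± 0.11 (edgeR adjusted p = 0.0581), and DESeq2 called it (0.31, adjusted p = 0.0142).

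Vgf was rare everywhere and was found mostly in beta and alpha cells. At least 1 UMI was found in 21.1% of beta-typed and 34.8% of alpha-typed cells, against 2.80% of delta-typed and 4.05% of PP-typed cells, whose median depths were 60708, 42438, 32419 and 38612 UMIs. In cells thinned to 20000 UMIs the shares were 13.3%, 26.2%, 2.54% and 1.88%. In the 904 cells without a hormone, at a median of 117318 UMIs, 4.87% had a Vgf UMI unthinned and 1.26% thinned, so the delta and PP shares lie near that background. Vgf was lower in delta than in beta by log2 -3.94 ± 0.70 (edgeR adjusted p = 2.88e-05) and in PP by -4.19 ± 0.61. Most delta and PP sums held no Vgf UMI, so these fitted values depend on the prior count. Alpha and beta were not called apart (0.09 ± 0.43, adjusted p = 0.912).

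The main treatment comparison set beta-typed cells of the 8 STZ libraries with implants against those of the 3 controls. No control had implants, so STZ and implants cannot be told apart in this comparison, and a response to STZ below means both. STZ mice were sampled up to month 9 after the dose, so age may differ as well. Chgb rose, and no other granin passed the threshold. Its levels in the controls were 301.5, 240.9 and 199.1. After STZ they were 744.0 in STZ_D6, 831.6 and 870.6 in STZ_D12, 648.3 in STZ_D30, 666.9 in STZ_D42, 345.0 in STZ_M2, 555.8 in STZ_M5 and 884.1 in STZ_M9. All 8 STZ values lay above all 3 controls, and the lowest came from only 7 cells. The log2 fold change was 1.61 ± 0.23 (SE, 3.06-fold, edgeR adjusted p = 0.000685), where 218 of 10325 genes, or 2.11%, were called. The labels number batches 1 to 3, the same as the replicate number: batch 1 held 1 control and 7 of the 8 STZ libraries, batch 2 held 1 of each arm and batch 3 a control alone. Within batch 1 Chgb was 301.5 in the control and 345.0 to 884.1 after STZ, and within batch 2 it was 240.9 and 870.6. With the batch as a replicate block Chgb rose by 1.54 ± 0.30 (adjusted p = 0.0271), and 71 genes were called. Mean log2 CPM was 10.78 ± 0.25 in controls (SD, n = 3) and 12.37 ± 0.37 after STZ (SD, n = 8).

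**Figure D2:**
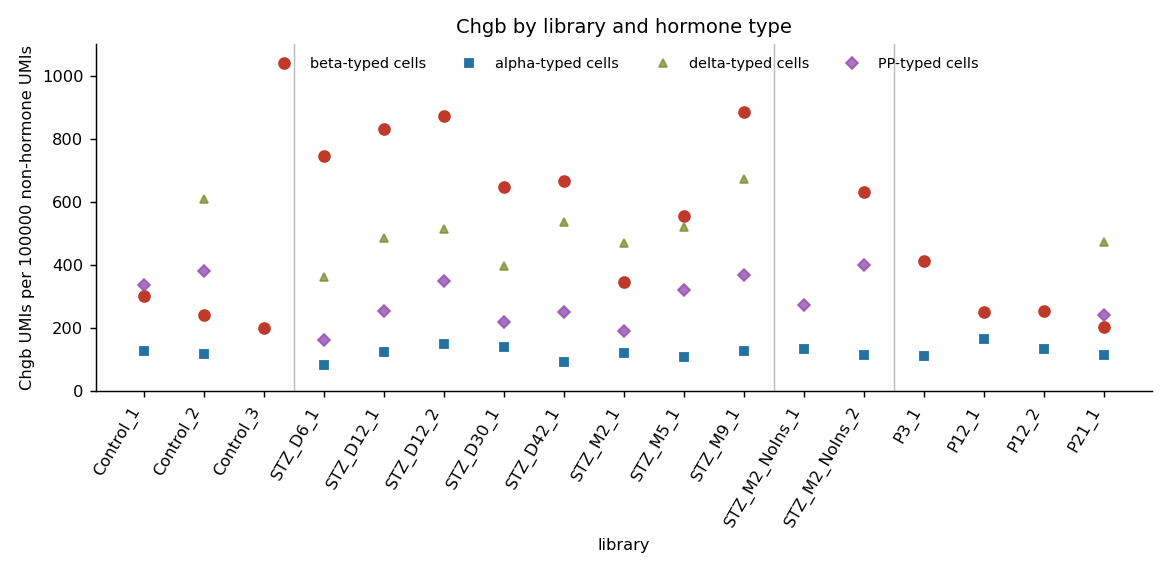
Chgb level (vertical axis, UMIs per 100000 non-hormone UMIs of the sum) in each library (horizontal axis) for beta-, alpha-, delta- and PP-typed cells, where at least 5 cells were typed; grey lines separate controls, STZ with implants, STZ without implants and postnatal libraries. Beta points lie between 199.1 and 301.5 in controls and between 345.0 and 884.1 after STZ with implants, while alpha points stay between 83.1 and 149.3 in adult libraries.

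The other chromogranin did not pass: Chga was 1880, 1649 and 1678 in controls and ran from 1318 to 2136 after STZ, with overlapping groups (log2 0.12 ± 0.18, adjusted p = 0.909). Scg2 was 1131, 1153 and 1135 in controls and 887.2 to 1432 after STZ (0.24 ± 0.17, adjusted p = 0.677). Scg3 was 280.3, 283.9 and 240.6 in controls and 231.8 to 500.4 after STZ (0.57 ± 0.20, edgeR adjusted p = 0.175); DESeq2 called it (0.58, adjusted p = 0.0456). Scg5 was 170.6, 152.7 and 144.2 in controls and 118.8 to 307.7 after STZ (0.60 ± 0.22, adjusted p = 0.205). For each of these 4 genes the STZ range included the control range. Vgf, described by time below, was at 1.33 ± 0.71 (adjusted p = 0.503). Chgb therefore made up a larger share of the family's UMIs, from 5.86% to 8.01% in controls and from 11.6% to 19.6% after STZ.

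**Figure D3:**
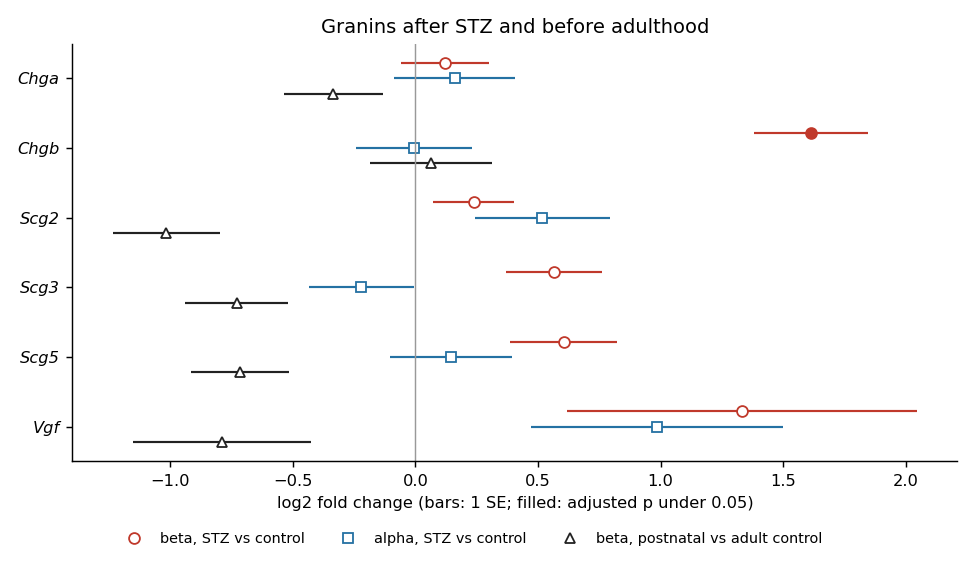
Log2 fold change (horizontal axis, bars of 1 SE) of each granin for beta-typed cells after STZ with implants against control, alpha-typed cells in the same comparison, and beta-typed cells of postnatal mice against adult controls; filled points passed an adjusted p of 0.05. Only Chgb in beta-typed cells (1.61) is filled, and for Scg2, Scg3 and Scg5 the postnatal points lie below 0 while the STZ points of beta-typed cells lie above it.

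Several other measures moved with Chgb in beta-typed cells. The median summed delta marker level per library was 2.44 to 3.76 in controls and 6.72 to 41.5 after STZ, and that of PP markers 33.0 to 117.4 and 68.7 to 349.2. Median Sst in beta-typed cells was 1.77 to 18.3 in controls and 40.2 to 178.6 after STZ. Delta-typed cells hold Chgb at a higher level than control beta-typed cells; with typing at 10000 and 10 times the other hormones, Chgb rose by 1.25 ± 0.22 (edgeR adjusted p = 0.00236). Acinar markers ran from 589.6 to 2296 in controls and from 1216 to 3240 after STZ, and without cells at or above 3000 of them Chgb rose by 1.66 ± 0.24. Beta markers ran from 19664 to 21977 in controls and from 8638 to 22220 after STZ. Endothelial and stromal markers were at a median of 0 in every library, and immune markers at 0 in controls and 0 to 9.56 after STZ. Median UMIs per beta-typed cell ran from 57762 to 69993 in controls and from 46706 to 101422 after STZ; with every cell thinned to 20000 UMIs, Chgb rose by 1.57 ± 0.24. Their part in the result beyond these values was not tested. Raw read file names of many cells begin with a code, taken here as a run, although no label says what it stands for. Under 1 such code, the shared run below, lay 1 control and cells of 3 STZ libraries. Chgb there was 240.9 in the control and 1066, 391.8 and 345.0 in STZ_D6, STZ_D30 and STZ_M2, from 13, 6 and 7 cells. With 1 control in that run the fit gave 1.497 ± 0.593 and no call (adjusted p = 1.00).

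Chgb was raised across much of the beta-typed population and not in a few cells only. The 90th percentile of all control beta-typed cells was 477.9 UMIs per 100000. In the controls, 12.3%, 7.52% and 4.76% of cells lay above it. After STZ the share ran from 34.4% of 61 cells in STZ_M5 (exact 95% interval 22.7% to 47.7%) to 81.3% of 32 cells in STZ_M9 (63.6% to 92.8%). Median cells held 182.8 to 269.0 in controls and 315.7 to 708.7 after STZ. The spread between cells was also wide: the upper quartile was 3.03 times the lower in STZ_D6, against 1.29 to 1.91 times in controls. Intervals cover counting error among the cells of 1 library only.

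**Figure D4:**
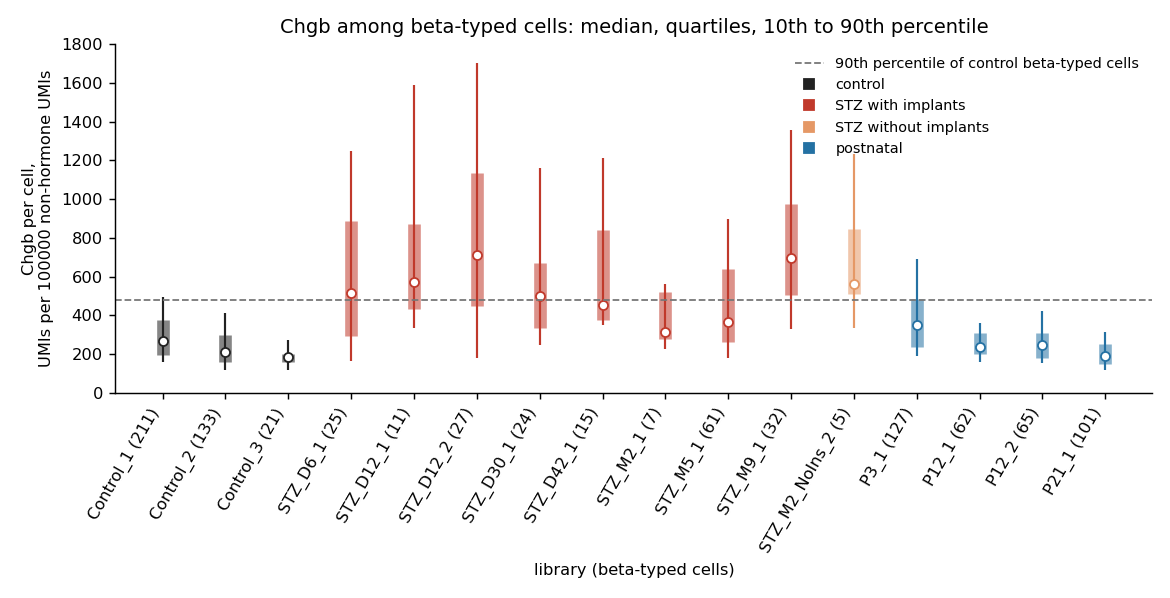
Chgb per beta-typed cell (vertical axis, UMIs per 100000 non-hormone UMIs) in each library, with the number of cells in brackets: open circle, median; thick bar, quartiles; thin line, 10th to 90th percentile; dashed line, 90th percentile of control cells (477.9). The medians of STZ libraries lie between 315.7 and 708.7, above the control medians of 182.8 to 269.0, and the P3 median is 348.0.

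Each STZ time was also set against control in 1 fit with a mean for each group, in which a group of 1 library is assumed to vary like the replicated groups; all these contrasts share the 3 controls. Chgb rose at 6 of 7 times: by log2 1.57 ± 0.26 in STZ_D6 (edgeR adjusted p = 0.00847), 1.82 ± 0.22 in STZ_D12 (0.000161), 1.51 ± 0.26 in STZ_D30 (0.00867), 1.51 ± 0.26 in STZ_D42 (0.00724), 1.39 ± 0.26 in STZ_M5 (0.0105) and 1.90 ± 0.26 in STZ_M9 (0.000404). In STZ_M2, with 7 beta-typed cells, it was 0.74 ± 0.27 (adjusted p = 0.204); the median of all genes there was -0.40, and DESeq2 called Chgb (0.89, adjusted p = 0.0165). The background of calls was 0.298% of 13412 genes in STZ_D6, 1.51% in STZ_D12, 0.626% in STZ_D30 and in STZ_D42, 0.932% in STZ_M2, 1.1% in STZ_M5 and 1.76% in STZ_M9. Without control replicate 2 the calls of STZ_D6, STZ_D30, STZ_D42 and STZ_M5 were lost, with adjusted p-values of 0.0560 to 0.0854 and log2 values of 1.35 to 1.54. Under typing at 10000 and 10 times, Chgb was not called in STZ_D6 (0.88, adjusted p = 0.239) or STZ_M5 (1.02, adjusted p = 0.0849).

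The other members were called at single times. Scg3 rose on day 12 (0.89 ± 0.20, edgeR adjusted p = 0.0329), at 469.4 and 500.4 against 240.6 to 283.9 in controls; the call was lost without any 1 of control replicate 2 (adjusted p = 0.141), control replicate 3 (0.0884), STZ_D12 replicate 1 (0.0999) or STZ_D12 replicate 2 (0.0982). Scg5 rose in STZ_M9 (1.04 ± 0.25, adjusted p = 0.0439), at 307.7 against 144.2 to 170.6, and was lost without control replicate 2 (adjusted p = 0.174) or 3 (0.0853). Vgf rose in STZ_D6 (2.55 ± 0.50, adjusted p = 0.0325) and STZ_D12 (2.096 ± 0.434, adjusted p = 0.0176), at 10.6 in STZ_D6 and 3.59 and 10.53 in STZ_D12, against 1.97, 1.96 and 1.28 in controls. These Vgf values came from few cells: 7 of 25 cells of STZ_D6 had a UMI, and 1 of them held 85 of the 117 UMIs. Without that cell the level of STZ_D6 was 3.08, and without its top cell that of STZ_D12 replicate 2 was 6.36. Without STZ_D12 replicate 2, Vgf on day 12 was 1.01 (adjusted p = 0.365), and without control replicate 2 neither Vgf call held (adjusted p = 0.127 and 0.0768); that of STZ_D6 was also lost without control replicate 1 (0.0619). With typing at 10000 and 10 times, Vgf was 0.12 in STZ_D6 (adjusted p = 0.987) and 1.34 in STZ_D12 (0.290); thinned cells gave 1.61 in STZ_D12 (0.180), and DESeq2 did not call STZ_D6 (2.61, adjusted p = 0.0670). In STZ_M2 no Vgf UMI was found in 7 cells, which at 3 counts of the total is a level of 0.845; this covers counting error only, and since most Vgf UMIs of a library lie in few cells it does not place STZ_M2 below the controls.

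No granin had a called trend over the time after STZ. A slope on log2 days over the 8 libraries called 0 of 9671 genes (0%) by edgeR, with 333 at an unadjusted p under 0.05 and 8 called by DESeq2. Chgb had a slope of -0.03 ± 0.06 per doubling of time, and Scg3 one of -0.11 ± 0.05 (edgeR unadjusted p = 0.0551). Vgf had the largest slope among the members, at -0.44 ± 0.17 (unadjusted p = 0.0187, adjusted p = 1.00). DESeq2 called 0 of the members. STZ_M2_NoIns replicate 2, with 5 beta-typed cells and no implants, had Chgb at 631.5, above the controls; replicate 1 had 2 beta-typed cells, at 316.8, and stayed out of the comparisons.

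Whether the rise of Chgb differed between beta and alpha cells was tested directly; for PP and delta cells the difference was not tested. Alpha-typed cells had Chgb at 126.7 and 118.5 in the 2 controls with at least 5 such cells and at 83.1 to 149.3 in the 8 STZ libraries, which lay on both sides of the controls. The log2 fold change was -0.00 ± 0.24 (adjusted p = 1.00). Scg2 was 157.7 and 220.0 in controls and 170.5 to 348.1 after STZ (0.52 ± 0.27), and Vgf 1.24 and 2.16 in controls and 1.37 to 6.67 after STZ (0.99 ± 0.51); neither passed (adjusted p = 1.00 for both). edgeR called 0 of 10679 genes in alpha sums (0%), with 439 at an unadjusted p under 0.05, and DESeq2 called 5, none of them a granin. No granin had an unadjusted p under 0.05 there. The difference was fitted over 20 sums of 10 libraries, 2 of them controls, with the library as a block. For Chgb the response of beta cells to STZ minus that of alpha cells was 1.49 ± 0.30 (edgeR adjusted p = 0.0430). Of 11890 genes 0.16% were called, and the fit was not repeated with a library left out. For Scg3 the difference was 0.70 ± 0.27 (adjusted p = 0.602). With typing at 1000 and 2 times, the Chgb difference was 1.70 ± 0.40 and was not called (adjusted p = 0.176).

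PP-typed cells gave no granin call. Chgb was 335.9 and 380.9 in 2 controls and 161.4 to 367.5 after STZ (log2 -0.17 ± 0.30, edgeR adjusted p = 0.921), and Scg2 473.3 and 499.7 in controls and 472.1 to 760.5 after STZ (0.49 ± 0.30, adjusted p = 0.701). Of 8358 genes 1 was called (0.012%), 683 had an unadjusted p under 0.05 and DESeq2 called 3; none of the 5 granins tested was among those. Delta-typed cells were not tested here, since 1 control had at least 5 of them: Chgb was 610.3 there and 363.0 to 671.2 after STZ. In month 2, alpha-typed cells of the 2 libraries without implants had Scg2 at 538.7 and 380.3, against 170.5 in the 1 library with implants. That difference was 1.37 ± 0.48 (unadjusted p = 0.00461) and was not called (edgeR adjusted p = 1.00), where 0.143% of 12614 genes were called; DESeq2 called no granin.

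The postnatal libraries set beta cells of growing mice beside those of adult controls. The summed granin level was 2221 to 2894 in the 4 postnatal libraries and 3399 to 3765 in controls, with Scg2 furthest below the controls, while Chgb did not follow. Scg2 was 421.9 in P3, 583.4 and 731.6 in the P12 libraries and 717.1 at P21, all below the controls at 1131 to 1153. Scg3 was 159.1 in P3, 157.0 and 148.4 in the P12 libraries and 239.1 at P21, against 240.6 to 283.9. Scg5 was 83.8, 103.5, 97.9 and 127.3 in the same order, against 144.2 to 170.6. Chga was 1143 in P3 and 1574 to 1657 in the other 3, against 1649 to 1880, where P12 replicate 2 lay inside the control range. Chgb was 412.0 in P3, above the controls, and 251.9, 253.3 and 203.9 in P12 and P21, within their range.

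**Figure D5:**
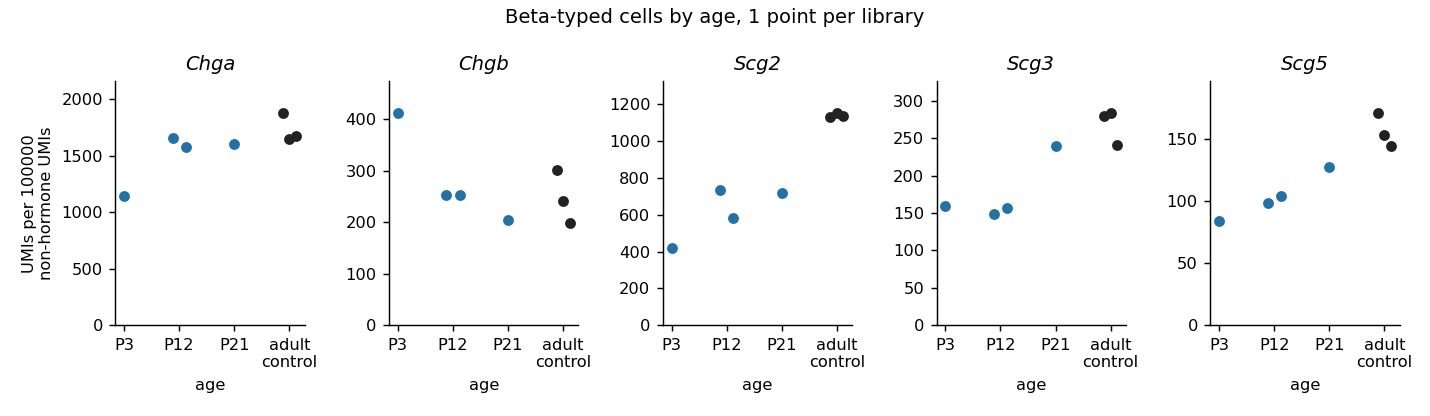
Level of 5 granins (vertical axis, UMIs per 100000 non-hormone UMIs of the sum, from 0) in beta-typed cells by age; each point is 1 library. Scg2 lies between 421.9 and 731.6 in the 4 postnatal libraries and between 1131 and 1153 in adult controls, while Chgb is highest in P3, at 412.0.

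As 1 arm of 4, the postnatal libraries gave no granin call by edgeR (0.204% of 12239 genes were called, and 0 genes with the batch as a replicate block): Scg2 was at log2 -1.02 ± 0.22 (adjusted p = 0.0828), Scg3 at -0.73 ± 0.21 (0.185), Scg5 at -0.72 ± 0.20 (0.167), Vgf at -0.79 ± 0.36 (0.441), Chga at -0.34 ± 0.20 (0.566) and Chgb at 0.06 ± 0.25 (0.950). Of the 6, 4 had an unadjusted p under 0.05, as did 1377 of the 12239 genes. DESeq2 called 3 (Scg2, Scg3 and Scg5), among 259 genes in all. With each age set against adult controls, Scg2 was lower by 1.61 ± 0.30 on the log2 scale in P3 (edgeR adjusted p = 0.00790). In P12 it was lower by 0.92 ± 0.22 (0.0357), and in P21 its log2 value was -0.79 ± 0.28 (adjusted p = 1.00). Scg3 was lower than in controls by 0.93 ± 0.21 in P12 (0.0289) and was -0.93 ± 0.28 in P3 (0.122). Scg5 was -1.07 ± 0.29 in P3 (0.0780) and -0.75 ± 0.22 in P12 (0.103), and in P3 Chga was -0.78 ± 0.29 (0.249) and Chgb 0.57 ± 0.27 (0.418). The share of all genes called was 1.51% for P3, 1.84% for P12 and 0.0671% for P21. In P21 DESeq2 called no granin, and 1 of 6 had an unadjusted p under 0.05, as did 516 of 13412 genes. The P12 calls of both genes were lost without control replicate 2 or either P12 library, and that of Scg2 also without control replicate 3. P3 against P12 and P21 called 0.403% of genes by edgeR and no granin by either tool. By edgeR, Chgb was at 0.80 ± 0.27 (adjusted p = 0.418) and Scg2 at -0.76 ± 0.28 (0.501). These 2 members had an unadjusted p under 0.05, as had 931 of 13412 genes. In P3 25.2% of 127 beta-typed cells lay above the control 90th percentile of Chgb, against 0% of 62, 3.08% of 65 and 1.98% of 101 cells in P12 and P21. Markers of other types in beta-typed cells moved with age as well. The median summed delta marker level was 9.67 to 95.8 in postnatal libraries against 2.44 to 3.76 in controls, and that of PP markers 38.0 to 1143 against 33.0 to 117.4. Median Sst was 140.9 in P3, 24.3 and 15.8 in the P12 libraries and 194.0 at P21, against 1.77 to 18.3 in controls, and median Gcg was 32.4 to 1002 against 92.8 to 439.4. Their part in these values was not tested.

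Other genes of the granule pathway were read from 4 lists. In beta-typed cells after STZ, the 6 granins had a median log2 change of 0.59, with 1 higher and 0 lower, beside a median of 0.01 over all genes. Of all 10325 genes tested there, 2.11% were called. Of 8 prohormone processing genes 1 was higher and 0 were lower (median 0.27): Pam, which amidates peptides in the granule, rose by 1.25 ± 0.19 (edgeR adjusted p = 0.00133). Of 13 tested genes of the granule membrane and its biogenesis 0 were higher and 1 lower (median 0.06): Slc30a8, the zinc transporter of the insulin granule, fell by 1.66 ± 0.26 (adjusted p = 0.00150). Of 14 docking and release genes 0 were higher and 1 lower (median -0.03): Sytl4, or granuphilin, which docks insulin granules at the plasma membrane, fell by 1.93 ± 0.34 (adjusted p = 0.00395). Of 9 tested regulators 0 were higher and 1 lower (median -0.05): Neurod1, a transcription factor of endocrine cells, fell by 0.68 ± 0.17 (adjusted p = 0.0368). In the postnatal comparison none of these 4 lists had a called gene, where only 0.204% of 12239 genes were called.

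Within beta-typed cells of 1 library the granins varied largely apart from each other. Over 8 libraries with at least 30 such cells, the median Spearman correlation between pairs ran from -0.09 for Chga and Scg2 to 0.23 for Chgb and Scg3, and Chgb with Scg5 had 0.23 as well (lowest 0.13, highest 0.32). Chga had a median correlation of 0.44 with Ins2 and of -0.38 with the UMIs of the cell, and Scg2 one of 0.33 with Ucn3, a peptide of mature beta cells. In alpha-typed cells of 9 libraries the median was 0.35 for Chga and Chgb, 0.37 for Chga and Scg5 and 0.34 for Chga and Scg2, and -0.0017 for Scg3 and Scg5. In the same cells Chga had a median correlation of -0.32 with the summed acinar marker level. Cells of 1 library share handling and a common scale, so these are descriptions.

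Over all 55 sums of the 4 types, postnatal libraries included, the genes most like each member were found by the Pearson correlation of log2 CPM among 3637 well expressed genes. Chgb was most like Atp1b1 (r = 0.80), Dio1 (0.79) and Scg2 (0.78), the one pair of members among the nearest. Chga was most like Spc25 (0.77), Ero1lb (0.72) and Manf (0.71), Scg2 like Tmbim4 (0.82), Dnajb9 (0.81) and Sec11c (0.80), and Scg3 like Nucb2 (0.84), Sec11c (0.83) and Ndufa1 (0.82). Among the genes nearest to Scg5 were Tmem27 (0.88) and Itm2c (0.78), and among those nearest to Vgf were Spc25 (0.76) and Slc30a8 (0.71). The sums share libraries and span 4 hormone types, so these are descriptions.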

How the data were processed

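The authors deposited a table of UMI counts per gene and cell, and a second one of signal values; a signal value matched UMIs per 100000 UMIs of the cell after 8 hormone genes are removed (largest gap 0.00671). The submitters' processing notes list UMI-tools 0.5.0, SAMtools 1.3.1, featureCounts 1.5.3, TopHat2 2.1.0 and the build mm10; cell filters are not given in the sources used here. No cell was dropped for quality and no doublet caller was run; cells led by no single hormone were kept out of the types. The members and lists were chosen with earlier results of these data known. Counts were summed per library and type (at least 5 cells) and compared by edgeR 4.0.16 (TMM, filterByExpr, quasi-likelihood F test, Benjamini-Hochberg) in R 4.3.3. SEs were obtained from the fold change and its F value, so they restate the test. Alternatives were DESeq2 1.42.0, other scalings, filters, typing limits, thinning, a replicate block and left-out libraries; an acinar limit and a fit within 1 shared run were chosen after seeing the data. The 6 members are always named, with called genes of each list (up to 4) and the 3 most correlated genes per member, of which some are not reported here. Replicate numbers equal the batch numbers of the labels, so the block follows the labels. Replicate 1 minus 2 differences correlated at 0.17 (Control and STZ_D12), -0.02 (Control and P12) and -0.08 (STZ_D12 and P12) across genes. Batch 1 spans several of the raw file codes taken as runs. The edgeR code was also run on simulated counts, and the outcome is not reported here. The 6 rows without a symbol held 0.00025% of UMIs.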

Additional observations from a re-analysis of the deposited data

Results flagged for a closer look

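Over 36 sets of 4 to 10 libraries, 5 values lay far from the rest of their set, and chance alone gives about 1 set in 20. In PP-typed cells after STZ with implants, Chga in STZ_M9 was 1415, far above the next of 8 libraries at 573.6, and 67.3% of its UMIs came from 1 of 5 cells. In delta-typed cells the same library was highest for Chga, at 679.0 against 442.3 for the next, and for Scg3, at 228.9 against 140.8. Among the 4 postnatal libraries, P3 was lowest for Chga in beta-typed cells, at 1143 against 1574 for the next, and P21 was highest for Scg3, at 239.1 against 159.1. The response of Chgb to STZ was 1.49 higher on the log2 scale in beta-typed than in alpha-typed cells by edgeR (adjusted p = 0.0430), a difference between cell types that was itself tested. That test had 2 controls and was not repeated with a library left out.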

How the results depend on the processing

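Of 744 comparisons of a granin's value under another setting 659 kept their direction and their side of the threshold, as did 230 of 258 that left out a library. The beta minus alpha response and the contrasts between types were not refitted with a library left out. Chgb in beta-typed cells after STZ stayed called without any 1 of 11 libraries (log2 1.52 to 1.75) and with a replicate block (1.54 ± 0.30, edgeR adjusted p = 0.0271), and lost the call in the shared run (1.497). Values near 0 turned sign: Chgb in postnatal beta cells with the replicate block (-0.10) and over left-out libraries (-0.17 to 0.22), Chgb in alpha cells after STZ with DESeq2 size factors (0.0038), DESeq2 (0.0033), the acinar limit (0.064), the replicate block (0.067) and left-out libraries (-0.059 to 0.051), Chgb in PP cells with the acinar limit (0.057), the Chgb slope with at least 20 cells (0.0011), and Vgf of alpha against beta with at least 20 cells (-0.16) or controls alone (-0.10). Chgb turned sign for delta against beta with typing at 10000 and 10 times (0.045) and in controls alone (1.09), and for PP against beta in controls alone (0.29). The cause was not tested.

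The number of granins called in beta cells after STZ was 1, or 2 with DESeq2 and 0 in the shared run. In the postnatal comparison it was 0, or 1 without a filter or with typing at 10000, 3 with DESeq2, and 0 to 2 over left-out libraries (2 without P21). It changed for STZ_D6 to 1 (DESeq2) and 0 (typing at 1000 or at 10000), STZ_D12 to 1 (typing at 1000) and 4 (DESeq2), STZ_M2 to 1 (DESeq2), STZ_M5 to 0 (either typing), and STZ_M9 to 1 (either typing, acinar limit). For P3 it became 2 (no filter, at least 20 cells, thinning), 3 (DESeq2) or 0 (typing at 1000), and for P12 and for the beta minus alpha response 0 (typing at 1000), with 3 for P12 by DESeq2. At STZ_D12, Scg3 was also lost with at least 20 cells (adjusted p = 0.0581). Over left-out libraries it ran from 0 to 2 in STZ_D6 and P12, 1 to 3 in STZ_D12, 0 to 1 in STZ_D30, STZ_D42 and STZ_M5, and 1 to 2 in STZ_M9. Between types it became 3 for delta against beta (at least 20 cells, controls alone), 2 and 3 for PP against beta, 3 for delta against alpha (controls alone), 1 and 2 for PP against alpha, and for PP against delta 2 (typing at 10000, acinar limit), 1 (at least 20 cells) and 0 (controls alone), where fewer sums were fitted.

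Over all genes, 218 were called in beta cells after STZ, against 430 without a filter, 513 with DESeq2, 130 and 124 with typing at 1000 and 10000, 71 with the replicate block, 6 in the shared run, and 88 to 366 over left-out libraries (88, 95 and 110 without each control, 366 without STZ_M2). Alpha cells gave 0, or 5 with DESeq2 and 1 with typing at 10000. The beta minus alpha response gave 19, or 101 without a filter, 70 with DESeq2, 4 with typing at 1000, 30 with at least 20 cells and 40 with thinning. In beta cells, STZ_D12 against control gave 203, or 201 with DESeq2, and P12 against control 247, or 259 with DESeq2. Further totals for single groups and type contrasts under other settings are not reported here. The replicate block changed no other call of a granin. With typing at 10000, the PP comparison after STZ and the beta minus alpha response could not be fitted, nor could PP cells, STZ_D42 or STZ_M2 with at least 20 cells. Sums of 5 to 7 cells limit STZ_M2 and many PP and delta values, and Vgf rests on few UMIs.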
